A study of Drosophila melanogaster with 3 samples.

Results

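Chromosome 4 of Drosophila melanogaster carried 618 of the 34945 peaks of exon junction complex (EJC) footprints in a tandem purification of tagged eIF4AIII and then Y14. In the purifications of Btz and then eIF4AIII, and of Y14 and then eIF4AIII, it carried 595 of 36393 and 230 of 16094. Members were all peaks whose chromosome column read 4, in 3 deposited peak lists, 1443 of 87432 peaks in all. The EJC is a clamp that splicing leaves on mRNA, just upstream of exon-exon junctions. Its helicase eIF4AIII grips the RNA, Y14 with its partner Mago locks the helicase in the closed state, and Btz (Barentsz) joins this core, which ribosomes strip off during translation. Chromosome 4, the small dot chromosome, is packaged largely as heterochromatin and yet holds many active genes, whose introns are often long and rich in repeats.

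The cells were S2, an established Drosophila line with hemocyte-like properties. A tagged EJC protein was expressed from a copper-inducible construct, the cells were grown for 72 h, and all 3 groups received cycloheximide at 100 µg/ml for 2 h, which blocks translation. A Flag affinity step came first, oligo(dT) beads then picked out the mRNA-bound complexes, micrococcal nuclease (MNase) digested exposed RNA for 15 min, and an antibody to another, endogenous EJC protein made the last capture. The groups were tagged eIF4AIII followed by Y14 (eIF4AIII/Y14, 0.5 units of MNase), tagged Btz followed by eIF4AIII (Btz/eIF4AIII, 0.5 units) and tagged Y14 followed by eIF4AIII (Y14/eIF4AIII, 0.3 units). Values given as 3 numbers follow this order. Each group had 1 library, so no difference was tested and no p-value is given. Shares come with 95% intervals by the exact Clopper-Pearson method, which cover counting error only and treat peaks as independent. No untagged or input RNA library was analysed here, so mRNA abundance and EJC occupancy cannot be told apart in any value below. The lists name no genes, and the identity of the cells was not checked against markers.

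The first question was how densely the chromosome is covered. Relative to the densest of the 5 other main arms (2L, 2R, 3L, 3R and X), chromosome 4 held 1.34, 1.26 and 1.14 times as many peaks per Mb. Per annotated intron the excess was smaller, at 1.11 and 1.04 times the highest other arm in the first 2 lists, and Y14/eIF4AIII lay below it at 0.912. The annotation (release 6) lists 917 distinct introns on chromosome 4. Their median length is 399 nt, against 83 to 154 nt on the other arms, and 29.4% of them are 50 to 75 nt long, against 35.3% to 47.1%.

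Fewer windows were empty than elsewhere. Of 128 windows of 10 kb, 32 (25%; 95% interval 17.8 to 33.4) held no peak of any list, whereas 40.6% to 49.4% of the windows of the other arms were empty. The longest stretch without a peak ran from 1081407 to 1136250, or 54.8 kb. Stretches of over 20 kb without a peak took up 30.2% of the span of chromosome 4 and 46.5% to 56.4% of the spans of the other arms. A locus, meaning overlapping peaks merged across lists on 1 strand, that was present in all 3 lists occurred in 33.6% of the windows of chromosome 4 and in 11.2% to 19.6% of those of the other arms. Cut into 92 consecutive stretches as long as chromosome 4 (1266 kb), the other arms held 6, 7 and 14 stretches with at least as many peaks. Chromosome 4 therefore lay in the upper part of their range and not outside it.

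**Figure D1:**
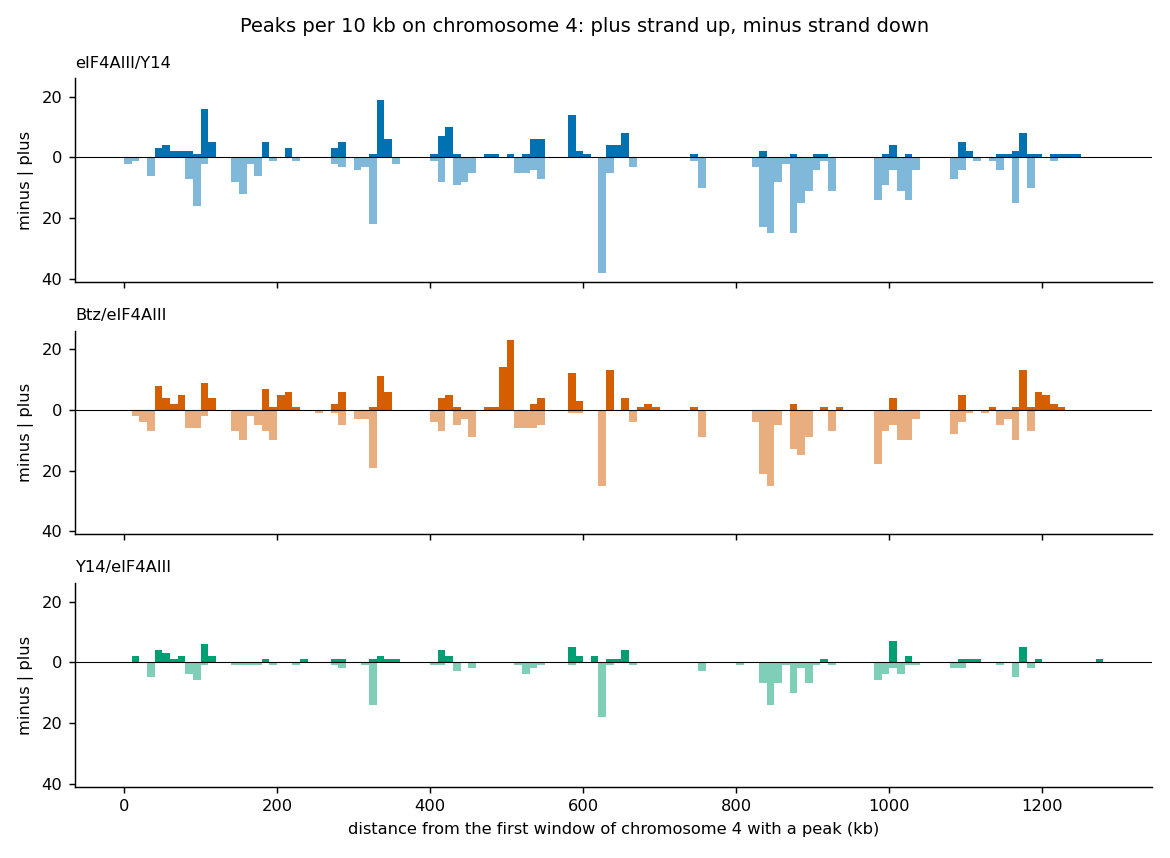
Peaks per 10 kb window along chromosome 4 (x axis, distance in kb from the first window with a peak) for the 3 lists, with the plus strand drawn upward in full colour and the minus strand downward in pale colour (y axis, number of peaks). The tallest column of the minus strand holds 38, 25 and 18 peaks in the 3 lists, and Btz/eIF4AIII has a plus-strand group of 14 and 23 peaks in neighbouring windows where the other lists have 0 or 1.

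Some windows held many peaks in all 3 lists. The 13 windows with the most peaks held 39.6% of the chromosome's peaks. On the other arms an equal share of windows held 48.9% to 57.5%, so peaks were less concentrated on chromosome 4. The window from 670001 to 680000 held 38, 25 and 18 peaks, all on the minus strand, and 15 loci in all 3 lists. It overlaps gw (gawky), whose protein carries out gene silencing by microRNAs. The window from 370001 to 380000, with 23, 20 and 15 peaks, and the window from 890001 to 900000, with 25, 25 and 14, each held 8 such loci. They overlap PMCA, which encodes a plasma membrane calcium pump, and unc-13, which encodes a synaptic vesicle priming protein. The windows from 880001 to 890000 and from 900001 to 910000 held 6 and 5. The gene names come from the match of gaps to introns described further on.

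Few windows were dominated by 1 list. An excess was called where a list had at least 5 peaks and a share of its peaks 4-fold above the mean log2 share of the other lists. Over all chromosomes 0.757% of the windows had such an excess of eIF4AIII/Y14 peaks, 1.11% of Btz/eIF4AIII peaks and 0.214% of Y14/eIF4AIII peaks. On chromosome 4 the counts were 2, 5 and 0 of 128. The single other arms had 7 to 15, 10 to 20 and 2 to 5, out of 2114 to 2790 windows. The eIF4AIII/Y14 and Btz/eIF4AIII shares were thus higher on chromosome 4, though they rest on few windows. For Btz/eIF4AIII the 2 with the largest excess adjoined each other, from 540001 to 550000 with 0, 14 and 0 peaks and from 550001 to 560000 with 1, 23 and 0 peaks. The window from 250001 to 260000, with 0, 5 and 0 peaks, came next, level with the one from 1250001 to 1260000. For eIF4AIII/Y14 the windows were 490001 to 500000, with 8, 3 and 0 peaks, and 950001 to 960000, with 5, 0 and 1.

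Strand was uneven on chromosome 4. Its eIF4AIII/Y14 list had 182 of 618 peaks on the plus strand (29.4%; 95% interval 25.9 to 33.2). The Btz/eIF4AIII list had 213 of 595 (35.8%; 31.9 to 39.8), and 70 of 230 peaks were on that strand in the Y14/eIF4AIII list (30.4%; 24.6 to 36.8). On the other arms as wholes the plus strand carried 45.3% to 49.8%. The annotated introns of chromosome 4 divide almost equally, with 443 on the plus and 474 on the minus strand. Among the 92 stretches of equal length on the other arms the plus share ran from 21.4% to 70.8%, from 27.9% to 71.7% and from 23.5% to 73.5%. At or below chromosome 4 lay 5, 10 and 7 of these stretches, so its imbalance is not outside what a stretch of this length shows elsewhere.

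Most of the imbalance lay in 1 region. The longest run of 100 kb windows in which each list had at least 2 times as many minus-strand as plus-strand peaks, a criterion chosen after the strands had been seen, spans 800001 to 1100000. There, 11 of 205, 8 of 169 and 10 of 82 peaks were on the plus strand. In the rest of the chromosome the plus strand carried 41.4%, 48.1% and 40.5%.

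A run is a series of neighbouring peaks on 1 strand. Its mean length on chromosome 4 was 9.97, 12.4 and 6.97 peaks, against 6.53 to 7.83, 7.76 to 8.54 and 4.65 to 5.22 on the other arms. Runs of 20 or more peaks held 58.7%, 42.7% and 23.5% of the peaks of chromosome 4, where the other arms had 30.2% to 41.0%, 27.4% to 37.8% and 10.4% to 25.2%. The Y14/eIF4AIII share, which comes from 1 run, thus lay within the range of the other arms. The longest eIF4AIII/Y14 run had 53 minus-strand peaks from 887598 to 927566, and it held 42 Btz/eIF4AIII and 29 Y14/eIF4AIII peaks of the same strand and 1 Btz/eIF4AIII peak of the other. The longest Btz/eIF4AIII run, 77 minus-strand peaks from 799980 to 927586, held 88 and 40 peaks of the other lists on its strand. The longest Y14/eIF4AIII run had 54 minus-strand peaks from 716319 to 950918, with 126 and 101 peaks of the other lists on its strand and 4 and 7 on the opposite strand. All 3 longest runs thus share the minus-strand stretch from 887598 to 927566, which holds most of unc-13.

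The second longest Btz/eIF4AIII run is on the plus strand, and it has almost no counterpart. Its 39 peaks lie between 527962 and 559312, where eIF4AIII/Y14 had 2 peaks, Y14/eIF4AIII had 0, and no list had a minus-strand peak. The depths of the 39 peaks ran from 1.84 to 2106 reads per base with a median of 35. The deepest, at 552260-552326, ranked 190 in its list.

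The depth of a peak is the deposited score, which behaves as a mean read depth per base and is not scaled to library size. It was therefore ranked within each list, with the deepest peak at a percentile of 0 and the shallowest at 100. The eIF4AIII/Y14 peaks of chromosome 4 ranked deep, with a median depth of 98.3 reads per base and a median percentile of 32.1 (95% interval 28.0 to 35.5). On the other 5 arms together these medians were 51.8 reads per base and 50.3. In Btz/eIF4AIII the median peak of chromosome 4 ranked shallow, at a median depth of 53 and a percentile of 58.2 (54.2 to 61.2), against 97.8 and 49.5 elsewhere. In Y14/eIF4AIII the medians were close, at 40.5 and a percentile of 47.8 (42.7 to 52.7), against 36 and 49.3. The direction thus differed between lists, and the difference between lists was not tested.

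The deepest 10% of each list was counted next. It included 20.9% of the eIF4AIII/Y14 peaks of chromosome 4 (129 of 618; 17.7 to 24.3). The shares were 10.9% of its Btz/eIF4AIII peaks (65 of 595; 8.53 to 13.7) and 11.7% of its Y14/eIF4AIII peaks (27 of 230; 7.88 to 16.6). On single other arms the shares ran from 8.04% to 10.9%, from 9.28% to 10.4% and from 9.04% to 11.1%. The shallowest 25% of the list included 15.4% of the eIF4AIII/Y14 peaks of chromosome 4 (other arms 23.4% to 27.2%) and 29.9% of its Btz/eIF4AIII peaks (23.9% to 25.4%). For Btz/eIF4AIII the interval at the shallow end, 26.3 to 33.8, lay above all other arms. At the deep end the interval of 8.53 to 13.7 included all other arms. The deepest 1% of the list held 1.51% of the Btz/eIF4AIII peaks of chromosome 4 (9 of 595; 0.694 to 2.85). The other arms had 0.684% to 1.13%, and the interval includes the highest of them. At these cuts of 10% and 1%, no excess of deep Btz/eIF4AIII peaks beyond counting error was therefore seen. With the shallower peaks of the list left out, a larger share of the remaining Btz/eIF4AIII peaks of chromosome 4, 17.2%, was in the deepest 10%. That value lay above the interval of 8.53 to 13.7 and was not compared with the other arms. The absence of an excess is thus limited to the 2 cuts of the full list. Of the 92 stretches on the other arms, 1 had a median eIF4AIII/Y14 percentile as deep and a Btz/eIF4AIII percentile as shallow as chromosome 4. This first stretch of 2R, with 197 and 219 peaks in these lists, stood at 27.2 and 58.4. Its plus-strand shares were 34.0% and 31.5%, and its median widths 33 and 42 nt.

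The depth pattern did not rest on 1 region or class of peaks. Inside the region of the minus strand the median percentiles were 33.7 and 56.4 in the lists of eIF4AIII/Y14 and Btz/eIF4AIII, and outside it 31.9 and 58.4. For eIF4AIII/Y14 the plus and minus strands gave 31.7 and 32.2. Peaks also found in another list stood at 26.5 on chromosome 4 and 43.0 on the other arms, and peaks found in that list alone stood at 38.8 and 56.4. For Btz/eIF4AIII the corresponding pairs were 51.3 and 43.9, and 65.5 and 54.0. Without its long plus-strand run the Btz/eIF4AIII percentile was 57.3.

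The same places can be ranked in both lists. At 299 loci of chromosome 4 with an eIF4AIII/Y14 and a Btz/eIF4AIII peak, the median percentiles were 19.7 and 49.6. The eIF4AIII/Y14 peak had the deeper rank at 196 of them (65.6%; 59.9 to 70.9), whereas on the other arms this held for 51.5% of 13151 loci. Against Y14/eIF4AIII the eIF4AIII/Y14 rank was deeper at 83 of 128 loci (64.8%; 55.9 to 73.1), and elsewhere at 53.2%. Between Btz/eIF4AIII and Y14/eIF4AIII the Btz/eIF4AIII rank was deeper at 73 of 137 (53.3%; 44.6 to 61.9), and elsewhere at 51.4%.

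**Figure D2:**
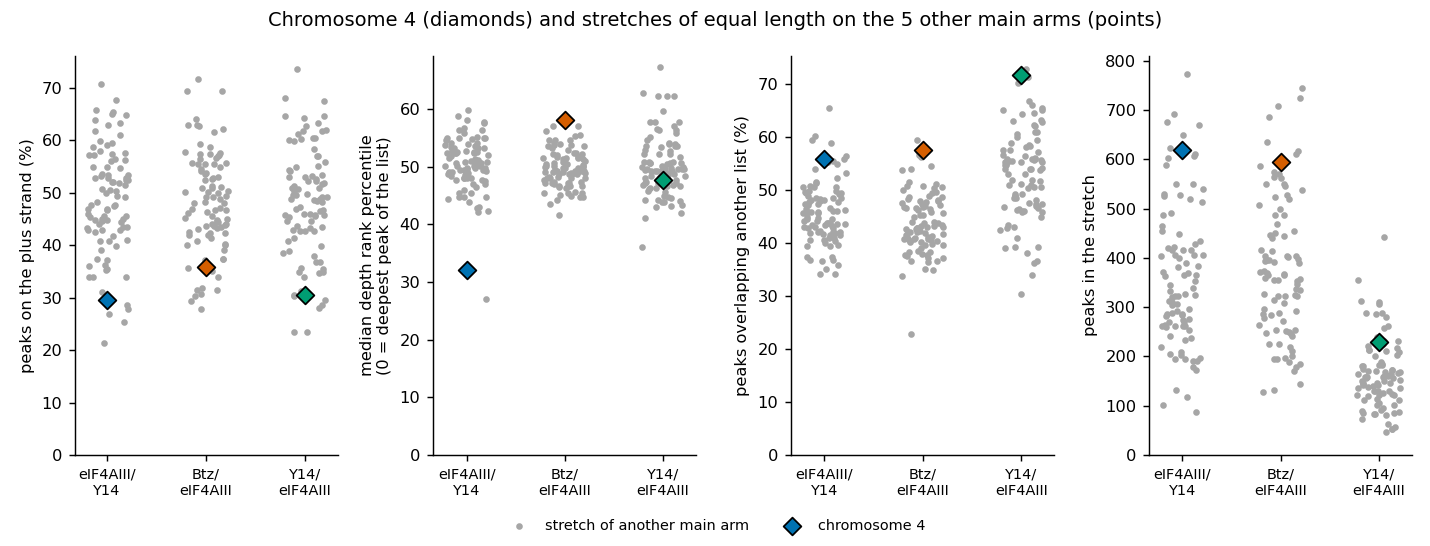
Chromosome 4 (diamonds) and 92 consecutive stretches of the same length on the 5 other main arms (grey points), with the 3 lists on the x axis of each panel. The y axes are the share of peaks on the plus strand in percent, the median depth rank percentile, the share of peaks overlapping another list in percent and the number of peaks. In the second panel chromosome 4 stands at 32.1, 58.2 and 47.8.

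Summed over bases, chromosome 4 held 3.45% of the depth of the eIF4AIII/Y14 list, 1.28% of Btz/eIF4AIII and 1.29% of Y14/eIF4AIII. A single peak made up 12.7% of the eIF4AIII/Y14 depth of the chromosome, and without it the share was 3.02%. This plus-strand peak at 964178-964203 ranked 1 in the whole eIF4AIII/Y14 list, at 33038 reads per base. A peak with the same borders ranked 13 in Btz/eIF4AIII at 9567 reads per base. A peak at 964181-964232 ranked 5707 in Y14/eIF4AIII at 116 reads per base. It lay inside the minus-strand region, 4443 nt from the nearest eIF4AIII/Y14 peak of its own strand.

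The other deepest peaks ranked very differently between lists. The second eIF4AIII/Y14 peak, 1232386-1232420 (minus strand, 4953 reads per base, rank 30), overlapped a Btz/eIF4AIII peak of rank 7239 and no Y14/eIF4AIII peak. The next, 894270-894365 in unc-13 (2491, rank 129), overlapped peaks of rank 18117 and 7841. For Btz/eIF4AIII the next were 589740-589816 in ND-49, which encodes a subunit of mitochondrial complex I (2365, rank 148), and 1042868-1042940, at the edge of a gap in PlexA (2263, rank 173). The counterparts of the first ranked 688 and 4417, and those of the second 11221 and 5088. For Y14/eIF4AIII the deepest were 676001-676061 in gw (2851, rank 51), 904189-904264 in unc-13 (2015, rank 92) and 86213-86271 (1968, rank 98). The last overlapped no peak of the other lists.

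Peak widths differed from the other arms in both directions. In eIF4AIII/Y14 the median width was 34 nt on chromosome 4 (95% interval 32 to 35) and 31 nt on the other arms. In Btz/eIF4AIII it was 47 nt (44 to 50) against 53 nt, and in Y14/eIF4AIII 43 nt (40 to 50) against 47 nt. The part of width in the depth ranks was not tested.

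Chromosome 4 peaks were found in other lists more often than peaks of the other arms. Of its eIF4AIII/Y14 peaks 322 of 618 overlapped a Btz/eIF4AIII peak on the same strand by at least 1 bp (52.1%; 48.1 to 56.1), against 41.8% of that whole list, and 21.2% overlapped a Y14/eIF4AIII peak, against 16.7%. Of its Btz/eIF4AIII peaks 52.3% (48.2 to 56.3) overlapped eIF4AIII/Y14, against 37.9%, and 24.4% overlapped Y14/eIF4AIII, against 19.3%. Of its Y14/eIF4AIII peaks 54.8% (48.1 to 61.3) overlapped eIF4AIII/Y14, against 35.1%, and 62.6% (56.0 to 68.9) overlapped Btz/eIF4AIII, against 44.8%. In each of these 6 comparisons the value of chromosome 4 lay above all 5 other arms. With peaks of the opposite strand the overlap on chromosome 4 was 1 to 4 peaks. Peaks per Mb were also higher on chromosome 4, and the part of density in the overlap was not tested.

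**Figure D3:**
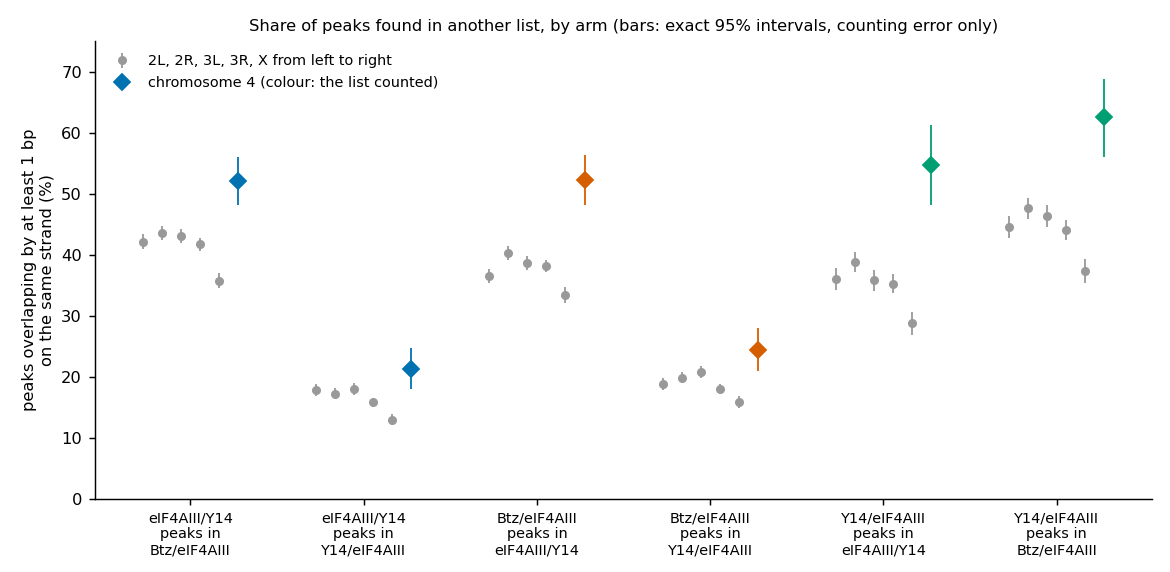
Share of peaks overlapping another list on the same strand (y axis, percent) for each ordered pair of lists (x axis), on chromosome 4 (coloured diamonds) and on 2L, 2R, 3L, 3R and X (grey points), with exact 95% intervals as bars. The chromosome 4 value is the highest of each group, from 21.2% to 62.6%.

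The merged loci of chromosome 4 numbered 935. Of these 110 (11.8%; 9.77 to 14.005) were in all 3 lists, against 6.72% of the loci of the whole genome and 4.86% to 7.36% on the single other arms. Another 189 were in eIF4AIII/Y14 and Btz/eIF4AIII, 27 in Btz/eIF4AIII and Y14/eIF4AIII, and 18 in eIF4AIII/Y14 and Y14/eIF4AIII. Restricted to the deepest 50% of each list, the share of eIF4AIII/Y14 peaks found in Btz/eIF4AIII was 29.5% on chromosome 4, no longer above the highest other arm. Among the 92 stretches elsewhere, 6, 1 and 1 had at least as high a share of peaks found in either other list.

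Neighbouring peaks of a list on 1 strand are separated by a stretch called a gap. Reads of spliced mRNA skip the intron. A gap of intron length can therefore lie between 2 footprints that flank a splice junction, or within 1 footprint read across it. Which of these applied to a gap was not tested. Gaps of 50 to 75 nt, the length of short Drosophila introns, made up 14.8% (91 of 616) of the eIF4AIII/Y14 gaps, 18.04% (107 of 593) of the Btz/eIF4AIII gaps and 4.39% (10 of 228) of the Y14/eIF4AIII gaps. On the other arms the shares were 8.4% to 11.1%, 14.4% to 19.3% and 6.48% to 8.27%. With the deepest 50% of the list alone, the eIF4AIII/Y14 share fell to 9.64% on chromosome 4 and to 5.51% to 6.98% on the other arms, and with peaks of at least 10 nt it was 11.5% against 5.86% to 7.97%. The median gap was 292.5 nt, 282 nt and 992.5 nt on chromosome 4, against 384 nt, 274 nt and 990 nt on the other arms together. Only in eIF4AIII/Y14 were gaps thus shorter than on the other arms together. The interval there, 225 to 359 nt, includes the 327 nt of 2R, so the difference from that arm is within counting error. The most frequent length on chromosome 4 was 56 nt in both lists with many short gaps, eIF4AIII/Y14 and Btz/eIF4AIII, against 60 to 65 nt on the other arms in these lists. In Y14/eIF4AIII too few gaps were present to give one.

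**Figure D4:**
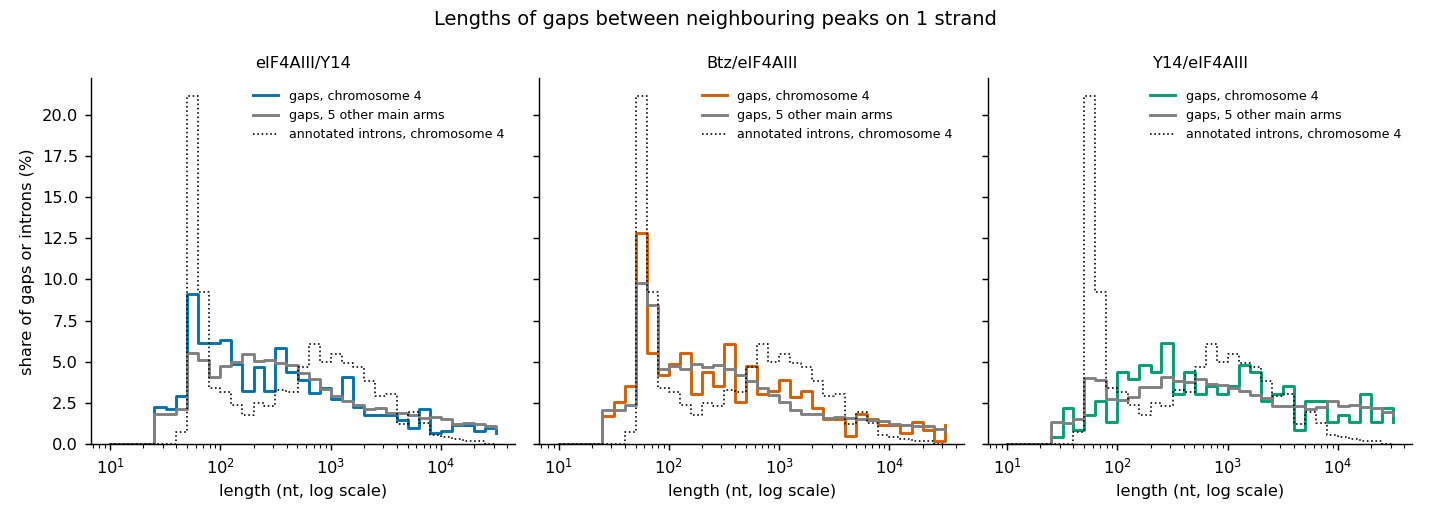
Lengths of gaps between neighbouring peaks on 1 strand (x axis, nt on a log scale; y axis, percent of gaps) for chromosome 4 (coloured line) and the 5 other main arms together (grey line), with the annotated introns of chromosome 4 dotted, 1 panel per list. In eIF4AIII/Y14 and Btz/eIF4AIII the class from 50 nt is the tallest, and 14.8% and 18.04% of the chromosome 4 gaps are 50 to 75 nt long.

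Gaps with identical borders in at least 2 lists were more frequent on chromosome 4. They were 58 of its 1373 distinct gaps (4.22%; 3.22 to 5.43), against 2.35% over all chromosomes and 2.02% to 2.66% on the other arms. Of the 58, 30 were 50 to 75 nt long and 20 (34.5%) were longer than 200 nt, a share that was 19.5% to 21.8% on the other arms. Of these 20 long shared gaps 19 had the exact length of an annotated intron of chromosome 4 on the same strand, and 1 had the length of an intron on the opposite strand. Of the 816 long gaps seen in 1 list alone, 98 matched an intron length on the same strand and 60 on the opposite strand.

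Since the lists are in release 5 coordinates and the annotation in release 6, genes were named from gap lengths and spacing alone. A gene was named where at least 2 shared gaps had, to the base, the lengths and the distance of 2 introns of 1 of its transcripts on the same strand. By this rule 49 of the 58 shared gaps were placed in 18 genes, and with strands exchanged 0 were placed. All 17 neighbouring pairs of these genes had the order of the annotation. Since 17 of the 18 genes had the same coordinate difference between the releases, this order largely follows from that difference and is no separate check. Of the 18 genes 13 are on the minus strand (among them Ank, Arl4, PMCA, ND-49, gw, Gyf, unc-13, eIF4G1, PlexA, CaMKII, Cals and PIP4K) and 5 on the plus strand (pan, Rad23, CaMKI, Arf4 and Mitf). Within the extent of their matched gaps they held 267, 244 and 113 peaks, or 43.2%, 41.0% and 49.1% of the chromosome's peaks.

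Several of these genes act in RNA silencing and translation. In gw, 4 shared gaps of 217 to 780 nt were placed, and the gene had 28, 20 and 15 peaks with median percentiles of 29.5, 33.3 and 40.8. In eIF4G1, which encodes the scaffold of translation initiation, 4 shared gaps were placed, of which the longest, 941826-945708, spans 3883 nt. The gene had 28, 24 and 9 peaks with median percentiles of 31.9, 30.1 and 51.0. In Gyf, a gene of translational repression, 3 shared gaps were placed, and its 22, 23 and 7 peaks had median percentiles of 50.6, 35.7 and 47.9. Gyf and eIF4G1 are thus among the genes whose Btz/eIF4AIII peaks ranked deeper than their eIF4AIII/Y14 peaks.

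Genes of calcium handling and signalling formed another set. PMCA had 5 shared gaps and 25, 22 and 14 peaks, with median percentiles of 27.7, 46.8 and 45.04. CaMKI and CaMKII encode calcium/calmodulin-dependent kinases. CaMKI had 11, 8 and 3 peaks with median percentiles of 10.5, 69.6 and 41.7. CaMKII had 4, 5 and 0 peaks, with 14.4 and 66.1 in the first 2 lists. In both kinase genes the eIF4AIII/Y14 peaks ranked far deeper than the Btz/eIF4AIII peaks. Cals, which encodes the membrane protein calsyntenin, had 8, 10 and 3 peaks, with median percentiles of 43.0, 58.9 and 66.4. PIP4K, a phosphoinositide kinase, had 10, 10 and 5 peaks, with 31.0, 59.4 and 44.4.

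Membrane, neuronal and transcription factor genes were also present. The largest number of peaks was in unc-13, with 54, 43 and 31 peaks and median percentiles of 32.9, 54.3 and 44.3. PlexA, a semaphorin receptor, had 17, 19 and 8 peaks with 31.1, 66.0 and 51.9. Ank, which links membrane proteins to spectrin, had 11, 9 and 6 peaks with 33.8, 78.0 and 25.6. In pan, the TCF transcription factor of Wingless signalling, there were 7, 9 and 4 peaks with 19.7, 57.1 and 13.8. In Mitf, a transcription factor of lysosomal genes, there were 6, 7 and 1 peaks with 60.8, 75.2 and 13.8.

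Several other genes were short. Arl4 and Arf4 encode small GTPases of the Arf family, and Rad23 a carrier of ubiquitinated proteins to the proteasome. Arl4 had 7, 7 and 1 peaks with median percentiles of 7.89, 43.3 and 12.5. Rad23 had 7, 7 and 2 peaks, with 16.5, 42.8 and 87.7, and its deepest eIF4AIII/Y14 peak reached 2379 reads per base. Arf4 had 4, 4 and 1 peaks with 61.6, 38.8 and 4.59, and ND-49 had 7, 8 and 2 peaks with 18.5, 15.8 and 27.1. Across the 18 genes the eIF4AIII/Y14 median ranked deeper than the Btz/eIF4AIII median in 14, the exceptions being ND-49, Gyf, eIF4G1 and Arf4. The genes share the libraries and the chromosome, so this count describes them and is no test.

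**Figure D5:**
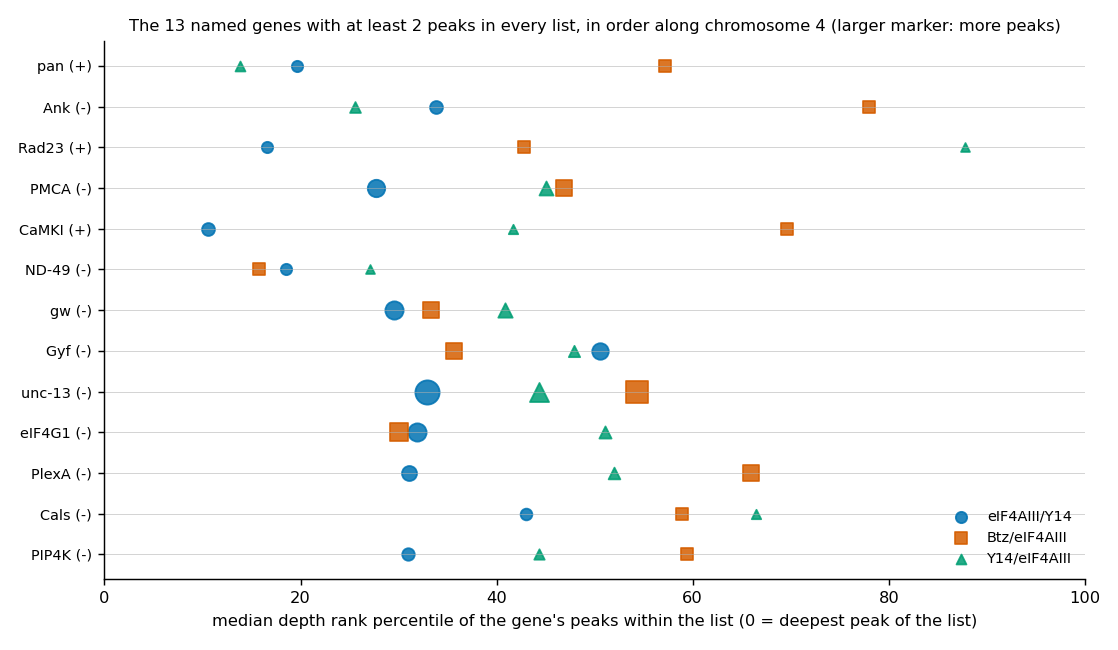
Median depth rank percentile of gene peaks within each list (x axis, with 0 the deepest peak of the list) for the 13 named genes with at least 2 peaks in every list (y axis, in order along chromosome 4, with strand), and marker size growing with the number of peaks. The eIF4AIII/Y14 circle lies left of the Btz/eIF4AIII square in 10 of the 13 genes, the exceptions being ND-49, Gyf and eIF4G1.

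Identical gaps in all 3 lists numbered 6, and they lie in pan, PMCA, Gyf, unc-13 and PlexA. Depths are given in reads per base for the peak upstream and then the peak downstream of the gap, which follow the strand column. At the 1083 nt gap of pan (106560-107642) the eIF4AIII/Y14 depths were 49.8 and 19, the Btz/eIF4AIII depths 22.5 and 20, and the Y14/eIF4AIII depths 1368 and 1368. This gap ranked deep in Y14/eIF4AIII alone, at a percentile of 3.71. Its downstream peaks were only 1, 2 and 2 nt wide in the 3 lists. At the 64 nt gap of PMCA (375593-375656) the depths were 648 and 83.1, 2034 and 1674, and 651 and 490. Its upstream peaks ranked deep in the first 2 lists, at percentiles of 3.04 and 0.569. At the 118 nt gap of PMCA (375188-375305) they were 337 and 13.5, 133 and 123, and 22.2 and 200.7.

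The 3 other gaps were longer than 400 nt. At the 405 nt gap of Gyf (882014-882418) the depths were 165 and 92, 540 and 259, and 16 and 16, with downstream peaks 1, 42 and 4 nt wide. At the 403 nt gap of unc-13 (896337-896739) they were 11.4 and 53.6, 58.3 and 414, and 948 and 948. At the 2226 nt gap of PlexA (1040642-1042867) they were 98.2 and 7.54, 2263 and 1059, and 168 and 222. The order of upstream and downstream depth therefore differed between gaps and between lists.

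Over all shared gaps the 2 sides differed in a list-dependent way. In eIF4AIII/Y14 the upstream peak had a median width of 45 nt and the downstream peak 11 nt, and the upstream peak was deeper at 41 of 51 gaps and the downstream peak at 9. In Btz/eIF4AIII the widths were 56 and 39 nt, and the upstream peak was deeper at 34 of 55 and the downstream peak at 19. In Y14/eIF4AIII the widths were 51.5 and 31 nt, and the upstream peak was deeper at 6 of 16 and the downstream peak at 8. On the other arms the median widths were 42 and 11 nt, 54 and 35 nt, and 38 and 25.5 nt, so upstream peaks were wider there too. The upstream peak was deeper there at 1187 gaps and the downstream peak at 245 in eIF4AIII/Y14. The counts were 1084 and 631 in Btz/eIF4AIII. In Y14/eIF4AIII they were 274 and 186, with 200 gaps equal, so the lean there was to the upstream side. With equal gaps included in the total, the upstream peak was deeper at 41.5% there. On chromosome 4 this Y14/eIF4AIII share was 37.5% (6 of 16; 15.2 to 64.6). The interval includes 41.5%, so the 6 and 8 of chromosome 4 show no difference beyond counting error. The shared gaps were chosen by peaks of the lists measured. For a list that had no part in the choice, gaps shared by the other 2 lists were taken, and the base 22 nt upstream of the gap was covered by eIF4AIII/Y14 at 10 of 11 gaps, by Btz/eIF4AIII at 8 of 8 and by Y14/eIF4AIII at 17 of 46. The base 22 nt downstream was covered at 3, 6 and 8 of these gaps.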

How the data were processed

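The data are 3 peak lists, 1 per purification, from S2 cells. The authors deposited stranded peaks with a signal value each. Clipped and merged appear in the track names, per the file headers. Per the submitters' processing notes the tools include Bowtie and SAMtools, with no version or role. No source used here gives the peak caller, its threshold or the reads per library. Multiplying the deposited signal by peak width gave whole numbers, within 0.001, for 100% of peaks, a property of mean depth per base. The track of the eIF4AIII/Y14 list names only Y14, and grouping followed the sample label. Sequence names are those of genome release 5, coordinates are 1-based, and the intron annotation is of release 6 (Ensembl 115), so no peak was assigned to a gene by position. Coordinates of the 2 releases were compared only in the spacing of gaps and introns and in the order of the matched genes.

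Members were counted with Python 3.11.15, NumPy 2.4.6 and SciPy 1.17.1, with figures in matplotlib 3.10.9. Functions for overlap, loci and gaps were checked with simulated peaks. Depth was used for ranks within a list. Overlap needed at least 1 bp on the same strand. Arm lengths ran from the first to the last peak of any list. Windows were 10 kb, with 0.5 added to counts for the excess. Intervals are exact at 95%. Named places were the 3 deepest peaks per list, the 5 windows with the most loci in all 3 lists, the longest run per list, up to 3 excess windows per list, the gaps identical in all 3 lists and the longest empty stretch. Minimum peaks, fold and other thresholds stand beside the results. The extent of a gene ran between its outermost gaps matched in any list. Of the 18 genes matched, 1 is counted in the totals and not reported here. The members, lists and rules were chosen with earlier results of these data known. The stretches of equal length, the region from 800001 to 1100000 and the plus-strand run of Btz/eIF4AIII were chosen after their values had been seen. Alternatives tried were the deepest 50% of each list, peaks of at least 10 nt, stricter overlap, lists of equal length, other gap limits, and leaving out single regions.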

Additional observations from a re-analysis of the deposited data

Results flagged for a closer look

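Chromosome 4 minus the other main arms went in opposite directions between eIF4AIII/Y14 and Btz/eIF4AIII in depth rank and in width. The median depth rank percentile, in which a lower value is a deeper rank, was lower on chromosome 4 by 18.2 points in eIF4AIII/Y14 (a difference of -18.2) and by 1.53 in Y14/eIF4AIII (-1.53), and higher by 8.63 in Btz/eIF4AIII. The median peak width differed by 3 nt in eIF4AIII/Y14, by -6 nt in Btz/eIF4AIII and by -4 nt in Y14/eIF4AIII. In Y14/eIF4AIII the 95% intervals of chromosome 4 (42.7 to 52.7 in percentile, 40 to 50 nt in width) include the other arms (49.3 and 47 nt). With 1 library per purification, the difference between purifications was not tested, and batch and purification cannot be told apart.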

How the results depend on the processing

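Of 105 alternative values for 26 results, 58 stayed within the counting interval (counts within 1.5 times) and 47 moved. No paired analysis was possible because each purification has 1 library. With the deepest 50% of each list alone the density of chromosome 4 relative to the densest other arm was 1.75 in eIF4AIII/Y14 and 1.05 in Btz/eIF4AIII, the mean Btz/eIF4AIII run 7.81 peaks, the share of eIF4AIII/Y14 gaps of 50 to 75 nt 9.64%, the median widths 59 nt in Btz/eIF4AIII and 57.5 nt in Y14/eIF4AIII, and the Btz/eIF4AIII share in the deepest 10% 17.2%. The overlaps were then 29.5% and 12.2% of eIF4AIII/Y14 peaks in Btz/eIF4AIII and Y14/eIF4AIII, and 41.1% and 47.6% of Y14/eIF4AIII peaks in eIF4AIII/Y14 and Btz/eIF4AIII, with 37 loci in all 3 lists and 22 shared gaps. Per annotated intron the relative density was 1.11, 1.04 and 0.912 in the 3 lists, and by bases covered 1.13 in Btz/eIF4AIII. Counting each run once gave plus-strand shares of 50%, 50% and 51.5%, which carry no information, since runs alternate between strands by construction. Leaving out 800001 to 1100000 gave 41.4%, 48.1% and 40.5%. Runs over merged loci averaged 10.9 peaks, which moved Y14/eIF4AIII. Peaks of at least 10 nt gave 11.5% gaps of 50 to 75 nt in eIF4AIII/Y14 and 32 shared gaps. Among gaps up to 500 nt the short share was 24.1%, 29.9% and 10.9%.

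For overlap, each setting is given as eIF4AIII/Y14 peaks in Btz/eIF4AIII and in Y14/eIF4AIII, Btz/eIF4AIII peaks in eIF4AIII/Y14 and in Y14/eIF4AIII, and Y14/eIF4AIII peaks in eIF4AIII/Y14 and in Btz/eIF4AIII. Overlap of at least 50% of both peaks gave 29.1%, 9.87%, 30.3%, 13.1%, 26.5% and 33.9%. The middle base covered gave 45.3%, 15.7%, 36.6%, 16.8%, 36.96% and 52.6%. Lists cut to their 16094 deepest peaks gave 26.6%, 21.6%, 47.5%, 33.9%, 38.3% and 33.5%, with 45 loci in all 3 lists. Chromosome 4 lay above the 5 other arms in 33 of 36 combinations of pair and setting, the main setting included. The exceptions were eIF4AIII/Y14 in Btz/eIF4AIII with the deepest 50% (29.5% against a highest arm of 29.5%) and in lists of equal length (26.6% against 27.2%), and eIF4AIII/Y14 in Y14/eIF4AIII with the deepest 50% (12.2% against 12.6%). The cause of these shifts was not tested. The leading limits are 1 library per purification, an unknown read depth and peak threshold, no control library, and peaks of 1 transcript that are not independent.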

Other observations

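Relaxing the match of gaps to introns so that gaps of any 1 list count, a choice made after the values had been seen, placed 160 gaps in 33 genes, with 0 placed when strands were exchanged. The gaps placed were 63, 139 and 18 in eIF4AIII/Y14, Btz/eIF4AIII and Y14/eIF4AIII, out of 616, 593 and 228. They reached 160 of the 917 annotated introns of chromosome 4 (17.4%; 95% interval 15.0 to 20.1). By length they reached 30.7% of introns of 50 to 75 nt, 12.1% of those of 76 to 200 nt, 15.3% of those above 200 and up to 1000 nt and 8.8% of longer ones. Since Btz/eIF4AIII gave most of the gaps, genes added by this match favour that list.

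Among the added genes, 3 were seen almost entirely in Btz/eIF4AIII. Each was placed by 6 gaps of Btz/eIF4AIII and 0 of the other lists, so the way they were chosen favoured that list. The transcription factor gene zfh2 had 1 eIF4AIII/Y14 peak, 31 Btz/eIF4AIII peaks and 0 Y14/eIF4AIII peaks, and 6 gaps of Btz/eIF4AIII matched its introns. These peaks lie in the plus-strand run of 39 Btz/eIF4AIII peaks. CG31999 had 1, 17 and 1 peaks. Cadps, whose product acts in dense-core vesicle release, had 0, 13 and 1. A list of called peaks does not show RNA below the calling threshold, so an absent peak is not an absent complex. The genes anne and Hcf, a chromatin cofactor gene, were placed by gaps of eIF4AIII/Y14 as well (2 and 3). Here anne had 18, 13 and 8 peaks and Hcf had 22, 15 and 3, so both were seen in all 3 lists.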
